A study of Mus musculus with 62 samples.

Results

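The genes that encode the AMPA and NMDA classes of ionotropic glutamate receptor were followed by genotype in bulk RNA-seq of mouse brain. The members were the 10 rows, of 27179 in each count table, whose mouse symbol was Gria1, Gria2, Gria3, Gria4, Grin1, Grin2a, Grin2b, Grin2c, Grin2d or Grin3a. They comprised 4 AMPA receptor genes and 6 NMDA receptor genes, and each had a row in both tables. Forebrain of E17.5 embryos (aged in embryonic days) was represented by 8 euploid and 7 Ts65Dn embryos. Hippocampus of 6-week-old mice was represented by 8 euploid, 7 Ts65Dn and 8 Ts65Dn;Brwd1+/- males and by 8 euploid, 8 Ts65Dn and 8 Ts65Dn;Brwd1+/- females. Ts65Dn mice carry a freely segregating extra chromosome that triplicates a distal stretch of chromosome 16, and in Ts65Dn;Brwd1+/- mice a Brwd1 mutant allele (repro5) brings the number of functional copies of Brwd1, a chromatin reader gene within the triplicated stretch, back to that of euploid mice. All adults came from crosses of Ts65Dn females with Brwd1 mutant carrier males on a mixed DBA/2J and B6EiC3Sn/J background, so littermates differ genetically beyond the named alleles. The sex of the embryos was not given by the labels, and euploid mice that carry the Brwd1 mutation were not analysed here.

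AMPA receptors are tetramers of GluA1 to GluA4 (Gria1 to Gria4) that carry the fast excitatory current, and the GluA2 subunit makes the channel nearly impermeable to calcium. NMDA receptors pair the obligatory GluN1 subunit (Grin1) with GluN2 subunits (Grin2a to Grin2d) or GluN3 subunits (such as Grin3a), open only when glutamate binding coincides with depolarisation, and admit calcium. In the rodent forebrain GluN2B and GluN2D are the prominent GluN2 subunits before birth, GluN2A rises after birth, and hippocampal long-term potentiation depends on both receptor classes.

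None of the members lies in the triplicated stretch as sampled here. On the GRCm38 assembly, the 34 chromosome 16 genes used to check trisomy span 84.8 to 98.0 Mb, whereas Grin2a, the one member on that chromosome, lies at chr16:9567898-9995560. The other members lie at chr11:57011387-57330244 (Gria1), chr3:80681450-80802835 (Gria2), chrX:41400854-41678601 (Gria3), chr9:4417896-4796234 (Gria4), chr2:25291181-25319187 (Grin1), chr6:135713233-136173511 (Grin2b), chr11:115249169-115267243 (Grin2c), chr7:45831883-45878378 (Grin2d) and chr4:49661611-49845744 (Grin3a). Their merged exons range from 5.04 kb for Grin2c to 24.84 kb for Grin2b. The GC content of their longest transcripts ranges from 36.8% for Gria2 to 65.0% for Grin2d. An antisense gene, Grin1os, overlaps Grin1, and the library kit did not mark strand, so reads of the pair could not be told apart. Grin1os had mean levels of 1.33 to 3.79 log2 CPM (read counts scaled to a common library total) over the groups, against 6.81 to 9.31 for Grin1.

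The promoters of Grin1 and Grin2c are shown because these genes moved together across adult libraries, and Grin2c was the member that passed the test. Promoter sequence for 5 of the 10 members (Grin1, Gria2, Grin2d, Gria4 and Grin2c) was taken from RefSeq on GRCm38.p6, from 250 bases before to 50 bases after the annotated start, and both printed windows lie on the minus strand, Grin1 at chr2:25319138-25319437 and Grin2c at chr11:115267194-115267493. Capitals mark the GC box, GGGCGG, on the printed strand or its complement.
Grin1: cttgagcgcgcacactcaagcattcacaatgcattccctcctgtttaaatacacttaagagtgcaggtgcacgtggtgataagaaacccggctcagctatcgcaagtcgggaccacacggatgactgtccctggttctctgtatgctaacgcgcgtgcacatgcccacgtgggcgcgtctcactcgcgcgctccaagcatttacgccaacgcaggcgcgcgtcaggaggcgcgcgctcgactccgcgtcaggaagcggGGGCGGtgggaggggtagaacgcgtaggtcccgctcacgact
Grin2c: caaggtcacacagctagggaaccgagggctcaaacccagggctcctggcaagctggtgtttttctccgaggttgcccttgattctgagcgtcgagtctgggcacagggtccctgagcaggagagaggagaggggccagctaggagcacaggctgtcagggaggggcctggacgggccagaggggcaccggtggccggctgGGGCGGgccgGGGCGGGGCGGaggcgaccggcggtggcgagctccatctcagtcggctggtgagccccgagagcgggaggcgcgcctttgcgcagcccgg
The Grin2c window held 3 GC boxes and the Grin1 window held 1, while those of Gria2, Gria4 and Grin2d held 0. A GC box on either strand was present in 35.9% of 27025 promoter windows of this length. In the Grin2c window the last pair of GC boxes share a base, and no match overlapped one of another motif. The E box CACGTG occurred 2 times in the Grin1 window and in 7.24% of all windows, and neither the cAMP response element TGACGTCA (1.88% of windows) nor TATAAA (14.2% of windows) was found in the 5 windows on either strand. These are matches of letters only.

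The libraries held 14.9 to 62.6 M counted reads at E17.5 and 33.6 to 137.1 M in adults. Brwd1 was higher in Ts65Dn than in euploid libraries by 0.56 (SE 0.05) log2 units at E17.5, 0.53 (SE 0.09) in males and 0.46 (SE 0.11) in females (edgeR quasi-likelihood adjusted p = 1.19e-05, 0.00984 and 0.0243). In Ts65Dn;Brwd1+/- mice it lay between the other genotypes, 0.25 log2 units below Ts65Dn in each sex, which did not pass the test (adjusted p = 0.626 and 1). The 34 triplicated genes and the sex-specific genes went against the label of 6 adult libraries. Of these, 4 libraries labelled trisomic had euploid levels (male Ts65Dn replicate 1, male Ts65Dn;Brwd1+/- replicates 2 and 8 and female Ts65Dn;Brwd1+/- replicate 3), and the libraries labelled male Ts65Dn replicate 7 and female euploid replicate 7 had the other sex's pattern. They were kept under their labels, and the values without them are given beside the calls they touch. The libraries female euploid replicate 2 and female Ts65Dn;Brwd1+/- replicate 7 stood apart by gene length: the median deviation of genes with exons of at least 8 kb minus that of genes under 2 kb, members left out, was -0.816 and -0.777 log2 units, against -0.189 to 0.158 in the other adult libraries (deviations from the median of all adult libraries). These are called the length-skewed libraries, and the values without them are given beside the adult shares, ratios and tests that they touch. Brwd1 was at 6.50 and 6.79 log2 CPM in male Ts65Dn;Brwd1+/- replicates 2 and 8. Female Ts65Dn;Brwd1+/- replicates 3 and 7 had 6.58 and 6.79, against 7.05 to 7.28 in the other Ts65Dn;Brwd1+/- libraries. Male Ts65Dn replicate 1 had 6.93. The Brwd1 differences above include these libraries, and their values without them are not given here. In bulk tissue, fewer cells of a type and less RNA per cell cannot be told apart.

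In E17.5 forebrain the members ranked, per kb of exon, with Gria2 and Gria1 at the top and Grin2a at the bottom. Median levels were 5.34 and 5.16 log2 CPM per kb for Gria2 and Gria1, whose ranges overlapped although Gria2 was the higher in 13 of 15 libraries. Gria4 (3.89), Grin1 (3.55), Grin2d (3.08) and Gria3 (2.69) followed, with each range overlapping that of its neighbour in this order. Grin3a stood at 1.76, without overlap with Gria3 and above Grin2b in each library, although its range overlapped that of Grin2b. Grin2b (0.11) and Grin2c (-0.36) overlapped each other, and Grin2a, at -4.16 with 6 to 110 reads a library, lay below all of them without overlap.

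In the adult hippocampus Gria1 led and its range overlapped that of no other member. Its median was 7.56 log2 CPM per kb, with a lowest library of 7.14. Grin1 (5.90) and Gria2 (5.79) overlapped, Grin1 being higher in 34 of 47 libraries. Gria3 (4.45) was above Grin2c (3.57) in each of the 47 libraries, although the ranges over libraries overlapped. Grin2c and Gria4 (3.38) overlapped, with Grin2c higher in 29 of 47. The lower group, Grin2b (1.94), Grin2d (1.48), Grin2a (1.14) and Grin3a (0.71), formed a run in which each gene overlapped the next. With the length of the longest coding transcript in place of merged exons, the adult order was the same, and at E17.5 Gria4, Grin1, Grin2d and Gria3 shifted by 1 place each. The merged exons and longest coding transcript are similar for Grin2b (24842 and 24060 bases) and Grin2a (17933 and 14634 bases). This change of length therefore could not show whether the low ranks of these 2 genes depend on their long annotated exons.

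**Figure D1:**
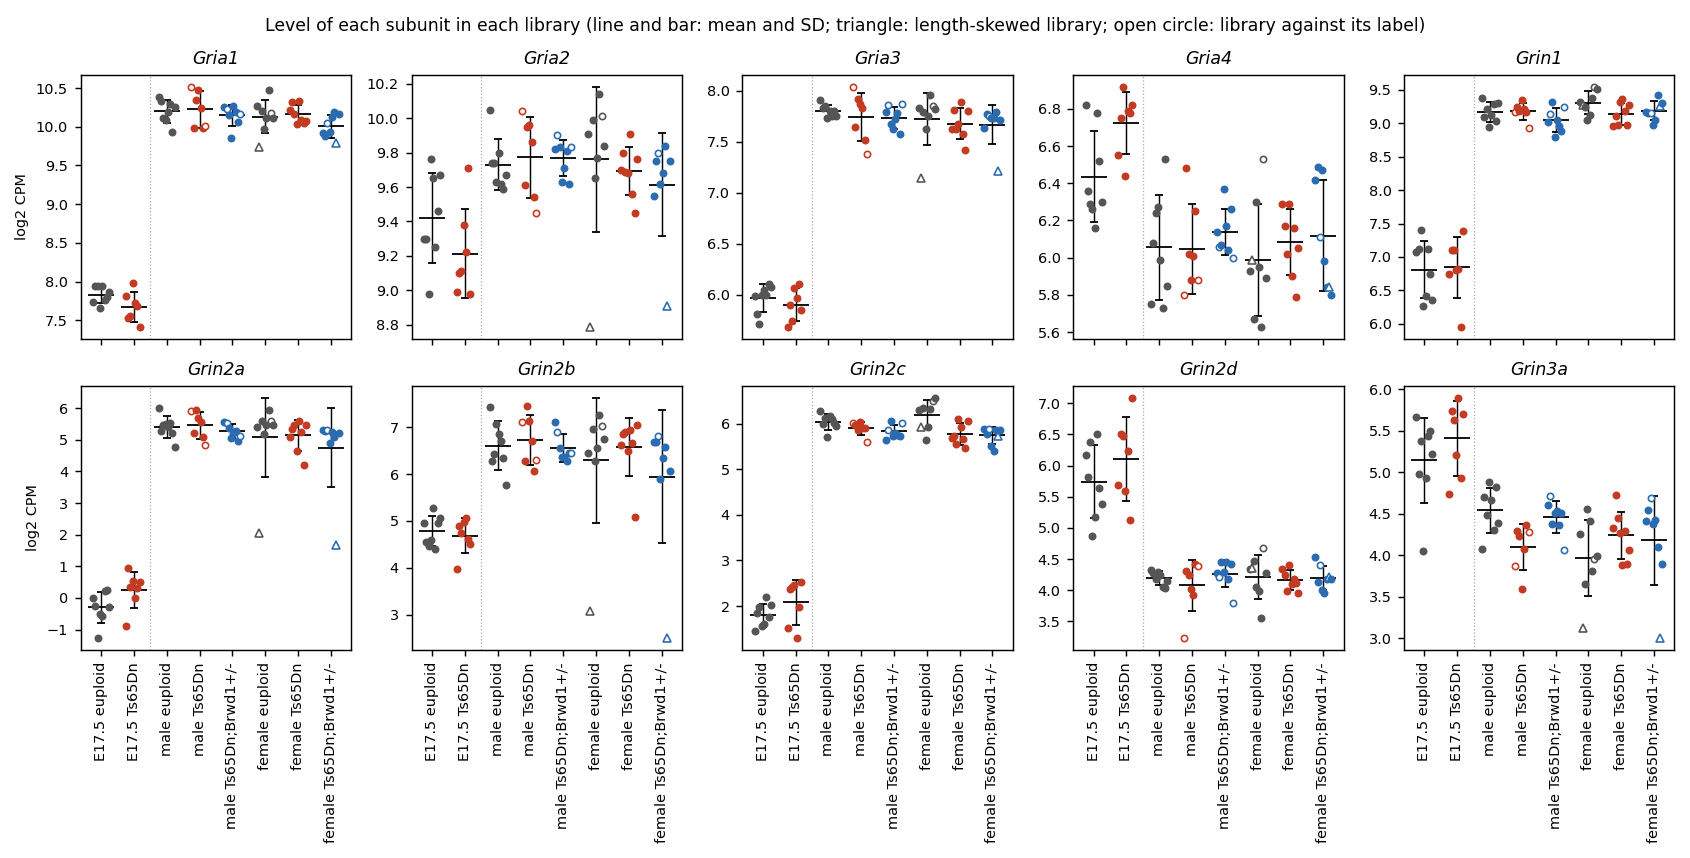
Level of each of the 10 members in each library, in log2 CPM, by stage, sex and genotype (points are libraries, black lines and bars are group means and SD, triangles are the length-skewed libraries, open circles the libraries against their labels). Gria1, Gria3, Grin1, Grin2a and Grin2c lie higher in every adult library than in any E17.5 library, Grin2d lies lower, and the 2 length-skewed libraries give the lowest Grin2a and Grin2b values of the adults. The share of all genes whose stages separate in this way is not given here.

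The stages differ in tissue, age and count table together, so their levels are set side by side without a test. Levels were scaled within each stage, and the share of all genes whose stages do not overlap is not given here. Absence of overlap is therefore not read as a trait of the members. Gria1 had a median of 7.76 log2 CPM at E17.5 (range 7.42 to 7.98) and 10.16 in adults (9.74 to 10.52). Gria3 stood at 5.99 (5.69 to 6.11) and 7.75 (7.14 to 8.04), and neither gene's stages overlapped. Gria2 differed less, at 9.30 (8.98 to 9.76) and 9.75 (8.79 to 10.14), with overlap. Gria4 was the one AMPA receptor gene with the lower adult median, 6.55 (6.16 to 6.92) against 6.04 (5.63 to 6.53), again with overlap. Among the NMDA receptor genes, Grin2a was 5.30 log2 units apart between stages, from 0.00 (-1.25 to 0.95) at E17.5 to 5.30 (1.67 to 6.01) in adults. Grin2c went from 1.97 (1.31 to 2.53) to 5.90 (5.40 to 6.57), and Grin1 from 6.82 (5.96 to 7.41) to 9.17 (8.80 to 9.55). The stages of these 3 genes did not overlap. Grin2d was on the other side, at 5.81 (4.87 to 7.09) in embryos and 4.21 (3.24 to 4.68) in adults, without overlap. Grin2b had medians of 4.75 (3.97 to 5.27) and 6.58 (2.51 to 7.46), and its stages overlapped also without the length-skewed libraries, where the lowest adult library was 5.09. Grin3a stood at 5.38 (4.05 to 5.90) and 4.33 (3.01 to 4.88), with overlap.

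Expressed per length, Gria2 and Gria1 shared most of the AMPA receptor transcripts of the embryo, and Gria1 alone held most of those of the adult. At E17.5 Gria1 made up 36.3% ± 3.88 (SD, n = 15), Gria2 41.8% ± 4.61, Gria4 15.6% ± 3.54 and Gria3 6.29% ± 0.38 of the summed per-kb level of the 4 genes. In adults the shares were 68.3% ± 2.12 (SD, n = 47) for Gria1, 19.9% ± 1.54 for Gria2, 7.83% ± 0.482 for Gria3 and 4.0% ± 0.935 for Gria4, and without the length-skewed libraries the means were 68.1%, 20.1%, 7.85% and 3.96%. Among the GluN2 genes, Grin2d made up 81.7% ± 6.55 of the summed per-kb level at E17.5, Grin2b 10.6% ± 4.69, Grin2c 7.16% ± 2.32 and Grin2a 0.521% ± 0.203. In adults Grin2c took 57.8% ± 6.06, Grin2b 18.3% ± 5.25, Grin2d 13.5% ± 2.91 and Grin2a 10.3% ± 2.47, and without the length-skewed libraries these means were 57.0%, 19%, 13.2% and 10.7%. These shares, like the per-kb levels above, rest on the annotated exon length, which is longest for Grin2b and Grin2a, and on even coverage along the transcript. The lengths are from GENCODE, whereas the deposited counts carry Entrez ids and the authors name an Ensembl annotation. The exons that were counted may therefore differ from those used for length, and shares of genes with long annotated exons could be too low. The libraries differed in their long-minus-short measure, and its part in the low shares of these long genes was not tested.

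**Figure D2:**
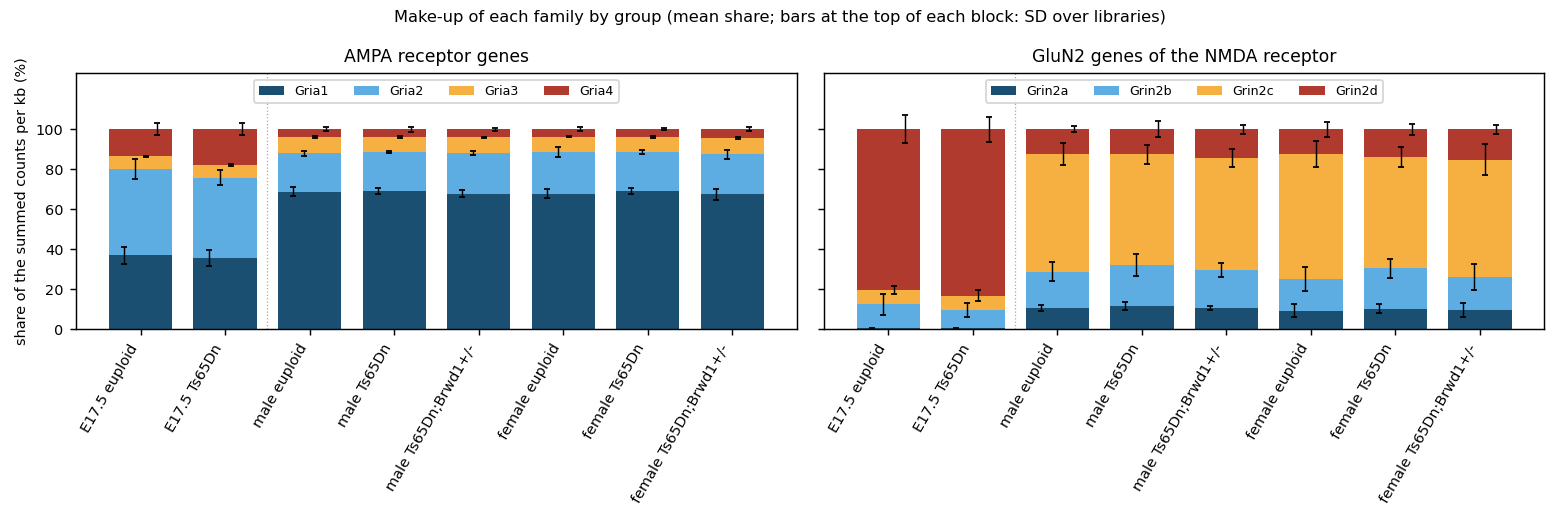
Share of each gene, in percent, of the summed per-kb level of the 4 AMPA receptor genes and of the 4 GluN2 genes in each of the 8 groups (stacked blocks are means over libraries, error bars at the top of each block are SD). Over all libraries of a stage, Gria1 is 36.3% of the AMPA total at E17.5 and 68.3% in adults, and Grin2d is 81.7% and 13.5% of the GluN2 total.

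In counts, the adult tissue held more Grin2a for each Grin2b read than the embryo. A median of 3.58 Grin2a reads (range 1.77 to 6.49) was counted per 100 Grin2b reads at E17.5 and 40.5 (28.0 to 55.7) in adults. Of the length-skewed libraries, female Ts65Dn;Brwd1+/- replicate 7 had the highest adult value (-0.84 as a log2 ratio) and female euploid replicate 2 had -1.03, while both genes were at their lowest adult levels in these libraries. Grin2d gave 233 reads per 100 Grin2b reads in embryos and 19.2 in adults, and Grin2c gave 16 and 64.4. For the AMPA receptor, reads per 100 Gria2 reads went from 33.8 to 130 for Gria1 and from 10.1 to 24.7 for Gria3, and from 15.5 down to 7.81 for Gria4. Grin3a gave 35.5 reads per 100 Grin1 reads in embryos and 3.36 in adults.

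At E17.5 no member differed between Ts65Dn and euploid forebrain at a false discovery rate (FDR) of 0.1 over all genes, with 2 of 10 at an unadjusted p under 0.05, where 1.35% of 16395 genes passed (edgeR quasi-likelihood test). The median log2 fold change of the members was 0.14 and that of all genes -0.014. Gria4, whose protein forms fast AMPA receptors, ranged from 6.16 through a median of 6.33 to 6.82 log2 CPM in the 8 euploid embryos and from 6.44 through 6.78 to 6.92 in the 7 Ts65Dn embryos. The groups overlapped, and the difference of 0.27 (SE 0.10) did not pass (adjusted p = 0.289). Grin2a ranged from -1.25 through -0.27 to 0.24 (6 to 72 reads) in euploid embryos and from -0.87 through 0.36 to 0.95 (18 to 110 reads) in Ts65Dn embryos. Its difference of 0.57 (SE 0.26) also missed the threshold (adjusted p = 0.39), and the groups overlapped. The remaining members lay between -0.21 (SE 0.12) for Gria2 and 0.39 (SE 0.30) for Grin2d, with adjusted p from 0.434 to 0.953. Both genotype groups held both sexes. Ddx3y, one of the sex-specific genes, was at 5.61 to 5.82 log2 CPM in euploid replicates 3 and 6 and Ts65Dn replicates 1, 2 and 7. In the other embryos it was at -2.02 or below. The titles of the embryos carry 1 of 2 numbers that both genotypes share, and the labels do not say what these mark. With this number as a covariate 0 members passed, and Gria4 and Grin2a differed by 0.27 (SE 0.11, adjusted p = 0.302) and 0.57 (SE 0.26, adjusted p = 0.383). In alternative fits that removed hidden factors (RUVr), Gria2, Gria4 and Grin2d passed in 4 fits each and Grin2a and Grin3a in 3 each. The share of all genes called in those fits is not given here, so these calls are not read as a trait of the members.

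Tissue markers also varied among the embryos. The summed level of 8 choroid plexus genes was 9.34 ± 1.54 log2 CPM (SD; 5.75 to 10.49) in euploid and 10.19 ± 0.40 (9.41 to 10.62) in Ts65Dn embryos, and that of 4 excitatory neuron genes 9.55 ± 0.50 and 9.21 ± 0.57. The 5 astrocyte genes summed to 8.24 ± 0.25 (7.80 to 8.64) and 8.60 ± 0.13 (8.33 to 8.70), with 1 of 5 called higher in Ts65Dn. None of the genes of these 3 lists was at 0. Their part in the Gria4 and Grin2a values was not tested.

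Across the embryos, levels of Grin1, Grin2d, Gria2 and Gria3 went with a GC measure of the library. The measure of a library was the median deviation of genes of at least 55% GC minus that of genes under 42% GC, without the members, and both it and the members' levels were taken as deviations from genotype means. Grin1, whose longest transcript is 59.4% GC, had Pearson r = 0.954 (permutation p = 1e-05, the smallest that 100000 permutations can give, adjusted p = 3.33e-05) and Spearman rho = 0.911 (permutation p = 2e-05) with this measure over 15 embryos. Without the 2 embryos farthest from the median r was 0.944, and within the 8 embryos with the lower and the 7 with the higher title number it was 0.958 and 0.95. Grin2d (65.0% GC) had r = 0.81 and rho = 0.768 (permutation p = 0.00016 and 0.00134). Gria2, the member lowest in GC, had r = -0.922 and rho = -0.875 (permutation p = 1e-05 and 4e-05), and -0.866 without the 2 farthest embryos. Gria3 (39.8% GC) had r = -0.726 and rho = -0.843, falling to -0.553 without the 2 farthest embryos. The remaining 6 members had r between -0.241 and 0.482, and 20 such relations were computed. With the GC measure as a covariate, added after seeing the data, the SE of the Grin1 difference between genotypes went from 0.20 to 0.07 and Gria2 reached -0.19 (SE 0.06, edgeR adjusted p = 0.1), at the threshold but not past it. The summed excitatory neuron level was 8.55 and 8.21 log2 CPM in the embryos with the highest values of the measure (0.296 in euploid replicate 3 and 0.237 in Ts65Dn replicate 7). It was 9.85 and 9.84 in those with the lowest (-0.541 in Ts65Dn replicate 6 and -0.229 in euploid replicate 8). The highest level, 10.22, was in another euploid embryo, and no correlation of this level with the measure was computed. The part of the excitatory neuron level in these relations was not tested.

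**Figure D3:**
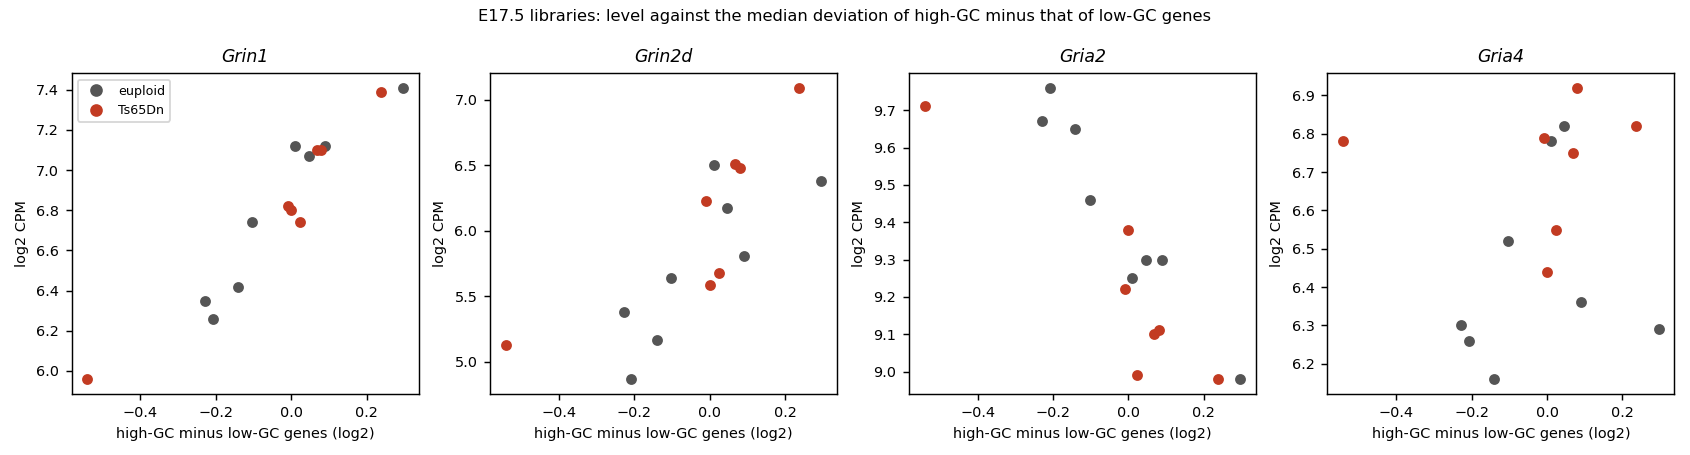
Level of Grin1, Grin2d, Gria2 and Gria4 (log2 CPM, y axis) against the median deviation of high-GC minus that of low-GC genes (log2 units, x axis) in the 15 E17.5 embryos, coloured by genotype. Points are embryos, and Grin1 rises with the measure (r = 0.954 within genotypes) while Gria2 falls (r = -0.922) and Gria4 does neither (r = 0.128).

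In adult males no member differed between Ts65Dn and euploid hippocampus at the FDR of 0.1, with 1 of 10 at p under 0.05, where 0.795% of 16851 genes passed (edgeR). Gria1, Gria2, Gria3 and Gria4 differed by -0.05 to 0.05 log2 units (SE 0.07 to 0.11). Grin3a, which encodes a glycine-binding subunit that lowers calcium entry, ranged from 4.08 through 4.58 to 4.88 log2 CPM in euploid males, from 3.60 through 4.23 to 4.37 in Ts65Dn males and from 4.07 through 4.51 to 4.71 in Ts65Dn;Brwd1+/- males. The Ts65Dn libraries lay towards the lower end, with overlap. The difference between Ts65Dn and euploid males was -0.44 (SE 0.12, edgeR adjusted p = 0.128) and that between Ts65Dn;Brwd1+/- and Ts65Dn males 0.35 (SE 0.12, adjusted p = 0.626), and neither passed. With DESeq2 in place of edgeR the first passed, at -0.45 (SE 0.12, adjusted p = 0.0278), and with edgeR it passed in 5 of 23 fits that each left out 1 library (euploid replicate 1 or 6, Ts65Dn replicate 6 or 7 or Ts65Dn;Brwd1+/- replicate 8; adjusted p = 0.0397 without euploid replicate 1). Without the libraries against their labels the values were -0.43 (SE 0.13, adjusted p = 0.138) and 0.35 (SE 0.13, adjusted p = 0.504). Both differences passed in alternative fits with RUVr factors, for which the share of all genes called is not given here. The Ts65Dn libraries enter both differences, so the values are not independent.

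Comparing Ts65Dn;Brwd1+/- with Ts65Dn males, 0 members passed and 1 of 10 had p under 0.05, where 0% of all genes passed and 1261 genes had p under 0.05. Against euploid males, 0 of 10 members passed and 1 had p under 0.05, where 0.576% of all genes passed. That member was Grin2c, whose product gives NMDA receptors with weak magnesium block. It ranged from 5.70 through 6.06 to 6.28 log2 CPM in euploid, from 5.59 through 5.90 to 6.03 in Ts65Dn and from 5.65 through 5.78 to 6.05 in Ts65Dn;Brwd1+/- males. The groups overlapped. Its differences from euploid males were -0.15 (SE 0.08, edgeR adjusted p = 0.577) in Ts65Dn and -0.22 (SE 0.07, adjusted p = 0.264) in Ts65Dn;Brwd1+/- males. The latter difference passed in alternative fits with RUVr factors, for which the share of all genes called is not given here. Grin1 in the same groups ranged from 8.94 through 9.17 to 9.38, from 8.93 through 9.19 to 9.35 and from 8.80 through 9.03 to 9.32.

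In adult females Grin2c was lower in both trisomic groups than in euploid hippocampus, and it was the 1 member of 10 that passed, where 3.17% of 17146 genes passed for Ts65Dn (2 members at p under 0.05) and 0.729% for Ts65Dn;Brwd1+/- (1 member at p under 0.05). Its level ranged from 5.65 through 6.30 to 6.57 log2 CPM in euploid females, from 5.46 through 5.71 to 6.09 in Ts65Dn females and from 5.40 through 5.82 to 5.89 in Ts65Dn;Brwd1+/- females. The euploid median lay above the highest library of either trisomic group, although the ranges overlapped at the low end of the euploid libraries. The log2 fold change was -0.44 (SE 0.12, edgeR adjusted p = 0.0618) for Ts65Dn and -0.47 (SE 0.12, adjusted p = 0.0895) for Ts65Dn;Brwd1+/-, comparisons that share the euploid libraries. Ts65Dn;Brwd1+/- and Ts65Dn females differed by -0.03 (SE 0.12, adjusted p = 1).

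The Grin2c calls depended on which libraries entered. Of the libraries against their labels, the female fit held euploid replicate 7 and Ts65Dn;Brwd1+/- replicate 3 only. Without these the calls were lost, at -0.39 (SE 0.12, edgeR adjusted p = 0.143) for Ts65Dn and -0.45 (SE 0.13, adjusted p = 0.161) for Ts65Dn;Brwd1+/-. Without the length-skewed libraries the calls held, at -0.47 (SE 0.13, adjusted p = 0.0235) and -0.50 (SE 0.13, adjusted p = 0.0511), and without both sets of libraries at -0.43 (adjusted p = 0.0584) and -0.48 (adjusted p = 0.0867). With 1 library left out at a time, the Ts65Dn call held in 14 of 24 fits, with fold changes of -0.50 to -0.37, and was lost without euploid replicate 1, 3, 6, 7 or 8 or Ts65Dn replicate 1, 2, 3, 6 or 7. The Ts65Dn;Brwd1+/- call held in 7 of 24, with fold changes of -0.54 to -0.41. It held without euploid replicate 2, 4 or 5, Ts65Dn replicate 4, 7 or 8 or Ts65Dn;Brwd1+/- replicate 3, and was lost without any other library.

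Other RNA measures of the female groups were as follows. Malat1, a nuclear long noncoding RNA, was at 9.26 ± 0.94 log2 CPM (SD; 7.43 to 10.39) in euploid females, against 8.51 ± 0.80 with the Ts65Dn genotype and 8.49 ± 0.68 with Ts65Dn;Brwd1+/-. Grin1os, the antisense gene at Grin1, had means of 3.79 ± 0.75, 2.96 ± 0.73 and 3.13 ± 0.57 in these groups. The summed level of 7 neuron genes, none at 0, was 12.38 (12.21 to 12.49), 12.51 (12.36 to 12.61) and 12.51 (12.37 to 12.62). The 5 astrocyte genes, none at 0, summed to 11.73 (11.04 to 12.01), 11.72 (11.44 to 11.95) and 11.60 (10.94 to 11.91), with 0 of 5 called in either comparison. The 5 dentate gyrus genes, none at 0, summed to 8.53 (7.66 to 9.27), 8.43 (8.09 to 8.72) and 8.21 (7.58 to 8.68), with 1 of 5 called higher in Ts65Dn than in euploid females although the median log2 fold change of the 5 genes was -0.47, and -0.43 for Ts65Dn;Brwd1+/- against euploid. Of 4 genes of the CA1 field 1 was called lower in Ts65Dn than in euploid females, and of 5 neural progenitor genes 1 was called lower in Ts65Dn;Brwd1+/- than in euploid females. The part of these measures in the Grin2c difference was not tested.

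**Figure D4:**
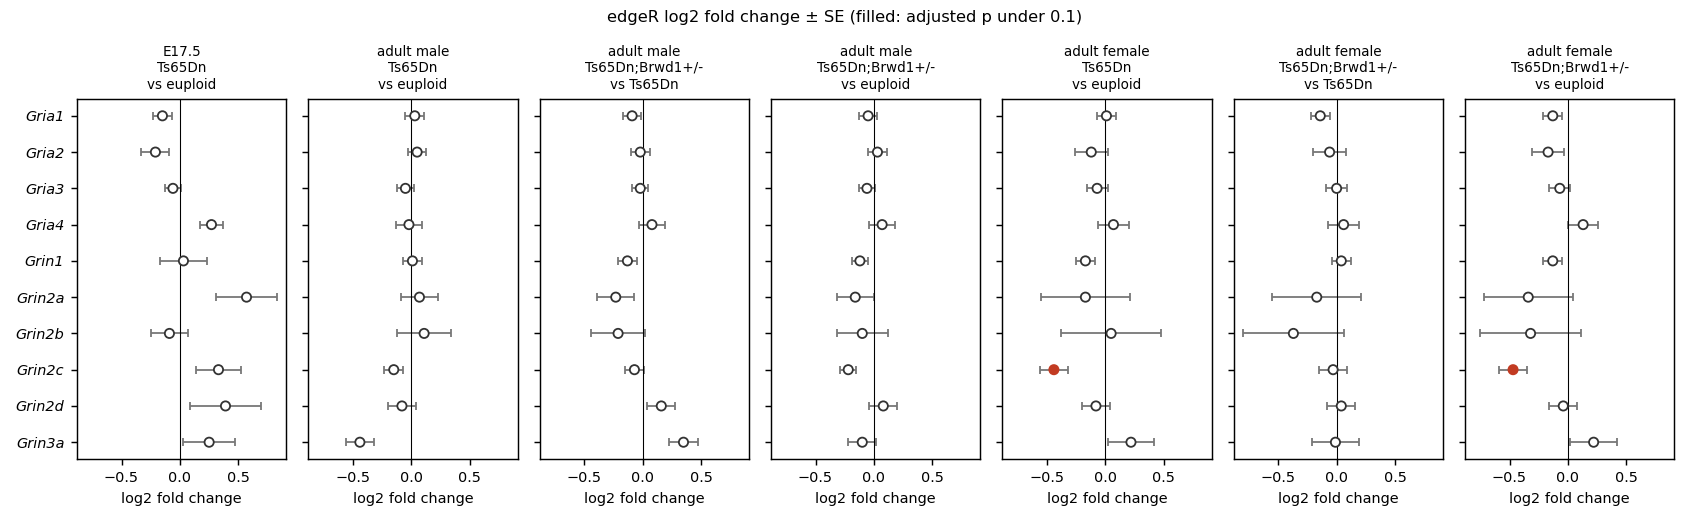
Log2 fold change of each member with its SE (edgeR) in the 7 genotype comparisons at E17.5 and in adult males and females. Filled points passed the FDR of 0.1, which were Grin2c in females for Ts65Dn (-0.44) and for Ts65Dn;Brwd1+/- (-0.47), each against euploid.

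The other members did not pass in females. Grin1 differed by -0.17 (SE 0.08, edgeR adjusted p = 0.304) between Ts65Dn and euploid. Gria2 stood at -0.12 (SE 0.14, adjusted p = 0.761) with all libraries. Without the length-skewed libraries its difference was -0.21 (SE 0.07, adjusted p = 0.0583), which passed in a fit where 17.4% of genes did, and the call was lost once the libraries against their labels were also left out (adjusted p = 0.121). Grin2a and Grin2b were measured with little precision in females, at -0.17 (SE 0.38) and 0.05 (SE 0.43). Without the length-skewed libraries they were at -0.34 (SE 0.15, adjusted p = 0.158) and -0.12 (SE 0.21, adjusted p = 0.775). Between Ts65Dn;Brwd1+/- and Ts65Dn females 0 of 10 members passed and 0 had p under 0.05, where 0% of all genes passed and 604 genes had p under 0.05. Those 10 differences lay between -0.37 (SE 0.43, Grin2b) and 0.06 (SE 0.13, Gria4).

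The effect of Ts65Dn on the members was not shown to differ between the sexes. In the interaction of sex and genotype over the 47 adult libraries, 0 of 10 members passed and 1 had p under 0.05, where 0% of 17427 genes passed and 1935 had p under 0.05. Grin2c had an interaction of -0.28 (SE 0.15, edgeR adjusted p = 0.476). That of Grin3a was 0.67 (SE 0.24, adjusted p = 0.303). For Ts65Dn;Brwd1+/- against Ts65Dn, 0 of 10 members passed and 0 had p under 0.05, where 0% of all genes passed and 650 had p under 0.05.

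Between the sexes within a genotype no member passed. Females and males were compared among euploid mice (1 of 10 members at p under 0.05, 3.71% of all genes passing), Ts65Dn mice (0 of 10 at p under 0.05, 0.00598% of genes passing) and Ts65Dn;Brwd1+/- mice (0 of 10, 0.0426% of genes passing). Grin3a ranged from 3.13 through 3.97 to 4.56 log2 CPM in euploid females, against 4.08 through 4.58 to 4.88 in euploid males. The groups overlapped, and the difference of -0.52 (SE 0.17, edgeR adjusted p = 0.123) did not pass. Without the length-skewed libraries it was -0.43 (SE 0.14, adjusted p = 0.0715), past the threshold, and without the libraries against their labels -0.51 (SE 0.18, adjusted p = 0.2). In the other genotypes Grin3a differed between the sexes by 0.14 (SE 0.13) and -0.22 (SE 0.17).

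Subunit ratios within a library need no scaling between libraries, and none of the 49 tests passed. Among 7 ratios in 7 genotype comparisons, 6 had p under 0.05 in the exact two-sided permutation test over animals, and the smallest adjusted p was 0.314. The Grin2a to Grin2b ratio at E17.5 was -5.07 ± 0.54 (log2, SD, n = 8) in euploid and -4.43 ± 0.41 (n = 7) in Ts65Dn embryos, a difference of 0.64 (SE 0.24, exact permutation p = 0.0255, adjusted p = 0.314). Euploid, Ts65Dn and Ts65Dn;Brwd1+/- males had -1.21 ± 0.24, -1.26 ± 0.22 and -1.30 ± 0.19, with differences within the SD. In females it was -1.21 ± 0.16, -1.44 ± 0.27 and -1.20 ± 0.28, and the Ts65Dn value lay 0.24 (SE 0.11) below euploid (exact permutation p = 0.0508, adjusted p = 0.356). When the length-skewed libraries were left out, the euploid and Ts65Dn;Brwd1+/- means were -1.23 and -1.25, the Ts65Dn value lay at -0.21 from euploid (adjusted p = 0.369), and 0 of the 49 tests passed (smallest adjusted p = 0.114). The Gria4 to Gria2 ratio at E17.5 was -2.99 ± 0.43 in euploid and -2.49 ± 0.32 in Ts65Dn embryos (exact permutation p = 0.0278, adjusted p = 0.314). Grin3a to Grin1 in males was -4.63 ± 0.42, -5.08 ± 0.37 and -4.59 ± 0.31 in euploid, Ts65Dn and Ts65Dn;Brwd1+/- mice (exact permutation p = 0.0466 for Ts65Dn against euploid and 0.014 for Ts65Dn;Brwd1+/- against Ts65Dn, adjusted p = 0.356 and 0.314). Gria3 to Gria2 had a small spread in males, at -1.93 ± 0.10, -2.03 ± 0.04 and -2.03 ± 0.06, and the trisomic groups each lay 0.10 below euploid (exact permutation p = 0.032 and 0.0284, adjusted p = 0.314 for each).

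Among the adult libraries, Grin2a, Gria3, Gria2 and Grin2b moved with the long-minus-short measure even when the length-skewed libraries were left out. Over the other 45 libraries, with deviations from group means, Pearson r was 0.85 for Grin2a, 0.766 for Gria3, 0.762 for Gria2 and 0.747 for Grin2b (permutation p = 1e-05 for each, adjusted p = 3.33e-05), with Spearman rho of 0.737, 0.677, 0.737 and 0.681. Without the 2 libraries farthest from the median, r was 0.789, 0.665, 0.701 and 0.688. Gria1, Grin2c and Grin1 had r of 0.481, 0.457 and 0.433, and Gria4, Grin3a and Grin2d had -0.015, -0.132 and -0.178. The values did not follow the members' own exon length throughout, since Grin3a, at 12.28 kb longer than Gria3 at 9.86 kb, had a negative r, and Grin2c, the shortest member, a positive one (permutation adjusted p = 0.00376). Grin2a was listed at 2.04 log2 CPM (241 reads) in female euploid replicate 2 and 1.67 (191 reads) in female Ts65Dn;Brwd1+/- replicate 7, against 4.20 to 6.01 in the other adult libraries, and Grin2b at 3.07 and 2.51 against 5.09 to 7.46. Grin3a was also lowest in these libraries, at 3.13 and 3.01, against 3.60 to 4.88 in the others.

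**Figure D5:**
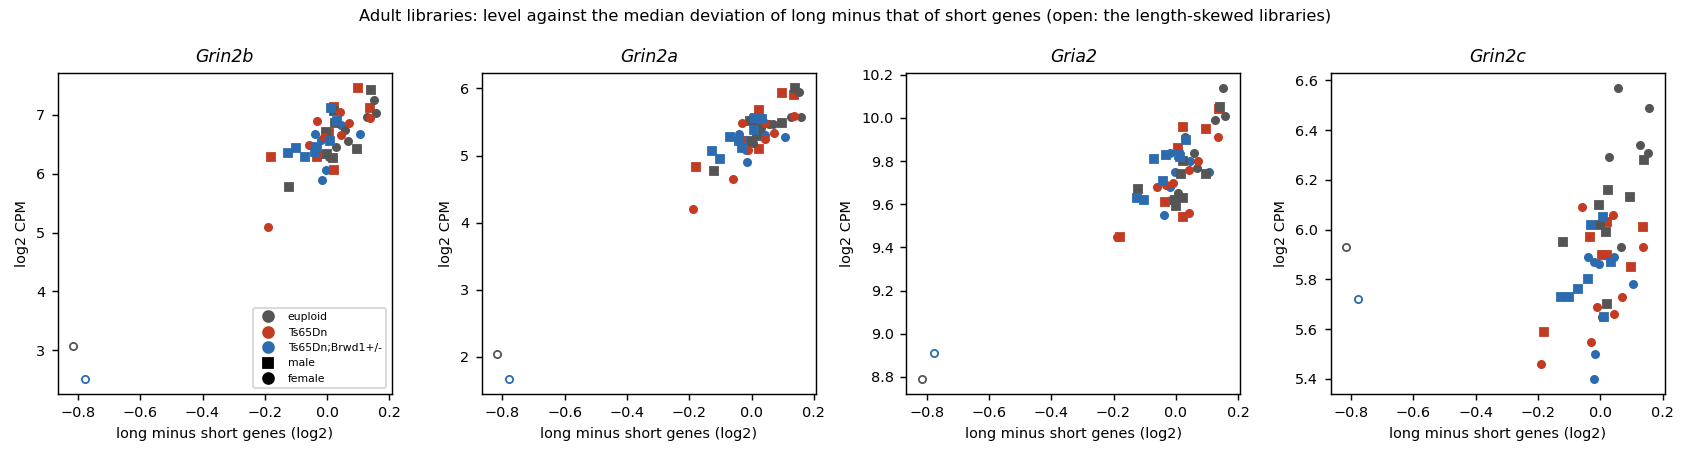
Level of Grin2b, Grin2a, Gria2 and Grin2c (log2 CPM, y axis) against the median deviation of long minus that of short genes (log2 units, x axis) in the 47 adult libraries, coloured by genotype, with squares for males and circles for females. The 2 length-skewed libraries (open circles) stand at the far left, with Grin2b at 3.07 and 2.51 and Grin2a at 2.04 and 1.67.

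Pairs of members moved together or apart across adult libraries. These correlations of deviations from group means are descriptions, and their points share library, depth and gene length effects. Grin2a and Grin2b had r = 0.97 over 47 libraries and 0.89 over the 45 without length skew, and 0.43 over the 15 embryos. Gria2 and Gria3 had 0.94, 0.89 and 0.79. Grin1 and Grin2c, the pair whose promoters are printed above, had 0.80, 0.82 and 0.36. Gria1 and Gria4 moved apart, at -0.54, -0.65 and -0.61. Some pairs changed with the libraries or stage: Gria2 and Grin3a went from 0.31 to -0.45 without the length-skewed libraries, Grin1 and Grin2d had 0.04 in adults and 0.92 in embryos, and Gria2 and Grin1 had 0.56 in the 45 adults and -0.93 in embryos. In embryos Grin1, Grin2d and Gria2 each also went with the GC measure of the library (r = 0.954, 0.81 and -0.922). The part of that measure in the embryo values of these pairs was not tested.

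Of 17417 genes compared over the 47 adult libraries, those most like each member were as follows, with r over the 45 libraries without length skew in parentheses. Gria1 was nearest to Ppfia2, r = 0.91 (0.91), and Slitrk5, 0.90 (0.89). Gria4 was nearest to Fgf12, 0.92 (0.93), and Cntnap3, 0.88 (0.88). Grin1 was nearest to Baiap2, 0.85 (0.85), and Ankrd13b, 0.84 (0.85). Grin2c was nearest to Atxn2l, 0.80 (0.81), and Bcan, 0.80 (0.83), and Grin2d to Sema4g, 0.76 (0.77), and Trim8, 0.76 (0.78). These values barely depended on the length-skewed libraries. For the longer members they did: Gria2 had Ryr2, 0.96 (0.88), and Celf1, 0.95 (0.87), Gria3 had Tcf4, 0.93 (0.88), and Ddx46, 0.93 (0.87), Grin2a had Gatad2b, 0.98 (0.89), and Dpp8, 0.98 (0.87), Grin2b had Huwe1, 0.97 (0.86), and Lrrc7, 0.97 (0.90), and Grin3a had Caln1, 0.93 (0.87), and Lpgat1, 0.91 (0.84).

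Of the genes whose products assemble, move and anchor these receptors, 1 was called at E17.5, where 1.35% of all genes passed. Between the euploid sexes 1 was called, where 3.71% of all genes passed, and neither count is read as a trait of these genes. Lists of 16 AMPA receptor auxiliary proteins, 14 trafficking factors, 16 postsynaptic scaffold and adhesion proteins and 20 NMDA receptor regulators were counted in the 12 comparisons. At E17.5, 1 of 14 trafficking genes was called higher in Ts65Dn, Nptx1, a secreted pentraxin that clusters AMPA receptors, at 0.38 (SE 0.09, edgeR adjusted p = 0.0789), from 4.80 through 5.09 to 5.45 log2 CPM in euploid embryos and 5.28 through 5.44 to 5.70 in Ts65Dn embryos, with overlap. Between female and male euploid mice, 1 of 16 scaffold genes was called lower in females, Nlgn1, a postsynaptic adhesion protein of excitatory synapses, at -0.28 (SE 0.07, adjusted p = 0.0733), from 5.73 through 6.14 to 6.31 and from 6.30 through 6.38 to 6.53 log2 CPM, again with overlap. It was at -0.23 (SE 0.05, adjusted p = 0.0244) without the length-skewed libraries and lost the call without those against their labels, at -0.28 (SE 0.08, adjusted p = 0.124). In all other comparisons 0 genes of these lists were called with all libraries. Between the euploid sexes 1 auxiliary, 2 trafficking and 2 scaffold genes were called without the length-skewed libraries, where 15.7% of all genes passed.

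In the adult genotype comparisons no gene of these lists passed with all libraries. In females, Cacng5, a transmembrane AMPA receptor regulatory protein, differed by -0.80 (SE 0.28, edgeR adjusted p = 0.149) in Ts65Dn and -0.94 (SE 0.28, adjusted p = 0.191) in Ts65Dn;Brwd1+/- mice against euploid, and without the length-skewed libraries by -0.82 (SE 0.31, adjusted p = 0.0878), which passed, and -0.95 (SE 0.32, adjusted p = 0.118). Arc, an activity-induced gene whose product removes AMPA receptors from the synapse, ranged from 6.41 through 7.70 to 8.24 log2 CPM in euploid females, against 6.70 through 7.18 to 7.43 in Ts65Dn females. Ts65Dn;Brwd1+/- females ranged from 7.38 through 7.77 to 8.53. It differed by -0.53 (SE 0.18, edgeR adjusted p = 0.14) between Ts65Dn and euploid and by 0.74 (SE 0.18, adjusted p = 0.678) between Ts65Dn;Brwd1+/- and Ts65Dn. These were -0.65 (SE 0.15, adjusted p = 0.0139), which passed, and 0.75 (SE 0.15, adjusted p = 0.155) without the length-skewed libraries, and without those against their labels -0.43 (SE 0.18, adjusted p = 0.309) and 0.68 (SE 0.18, adjusted p = 0.644). With the length-skewed libraries left out, 3 of 16 auxiliary, 1 of 14 trafficking, 0 of 16 scaffold and 1 of 20 regulator genes were called between Ts65Dn and euploid females, where 17.4% of all genes passed, and 1 auxiliary and 1 regulator gene between Ts65Dn;Brwd1+/- and euploid females, where 4.44% passed. Without the libraries against their labels 0 were called in females, and in males 1 auxiliary and 1 scaffold gene between Ts65Dn and euploid, where 1.54% passed (Abhd6 and Homer2, named after their values were seen). In males, 7 of 16 scaffold genes had p under 0.05 between Ts65Dn;Brwd1+/- and Ts65Dn, where 7.48% of all genes did, with a list median of -0.14 against -0.005 for all genes. Without the libraries against their labels 11 of 16 had p under 0.05, where 9.14% of all genes did, with a list median of -0.15, and 0 passed in either fit. The list was chosen with earlier results of these data known, and its genes were measured in the same libraries and are not independent. These counts are therefore not a test of the list. The smallest p with all libraries belonged to Shank3, a postsynaptic scaffold, at -0.18 (SE 0.06, edgeR adjusted p = 0.626). Among the NMDA receptor regulators Camk2a, the calcium/calmodulin kinase subunit of the postsynaptic density, differed by -0.22 (SE 0.08, edgeR adjusted p = 0.626) between Ts65Dn;Brwd1+/- and Ts65Dn males.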

How the data were processed

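Raw read counts per gene, as deposited by the authors, were used for 62 libraries, 15 of E17.5 forebrain and 47 of adult hippocampus. The authors made poly(A)-selected, unstranded single-read libraries (TruSeq RNA v2), joined the reads of 2 flow cells, aligned them to mm10 with HISAT2 (2.1.0 in the submitters' processing notes) and counted reads per gene with featureCounts (2.0.1). They tested with DESeq2 after removing hidden factors by RUVr, at an FDR of 0.1.

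Genes passing filterByExpr were tested with edgeR 4.0.16 (TMM scaling, robust quasi-likelihood fit, R 4.3.3) at a Benjamini-Hochberg FDR of 0.1 over all genes tested, in separate fits for embryos, adult males and adult females, for all adults (interactions) and for each genotype (sexes). Levels are log2 CPM with a prior count of 0.5. Differences between levels and fitted fold changes are on log2 scales. Ratios of subunits (counts plus 0.5) were compared by exact two-sided permutation tests over animals (scipy 1.17.1), adjusted over 49 tests. RNA-seq reads are not independent molecules, so the depth of 14.9 to 137.1 M reads limits counting error only. Libraries of a group differed by more than sampling noise (smallest chi-square per gene 9.05), and the labels do not say whether replicates came from separate litters or days (the embryo titles carry 1 of 2 unexplained numbers, used as a covariate), so p-values measure the spread between these samples.

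The members and the lists of partner and marker genes were chosen with earlier results of these data known. All members were named in every comparison. Of each partner list, genes that passed (up to 3 with the smallest p) or otherwise the gene with the smallest p were given for chosen comparisons (1 such gene is not reported here), and for each member the 2 genes with the highest Pearson r. Exon lengths (merged exons) and GC content (longest transcript) come from GENCODE M21 on GRCm38. Alternatives were DESeq2 1.42.0, upper-quartile scaling, other filters, 1 to 3 RUVr factors, an FDR of 0.05, 1 joint fit of all adults, replicate and covariate terms, a ratio count of 1, and leaving out single libraries or the libraries against their labels. Leaving out the length-skewed libraries, the GC covariate and the partner lists without either set of libraries were chosen after seeing the data. The tests were checked on simulated counts. Every deposited column of per-sample counts was used.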

Additional observations from a re-analysis of the deposited data

Results flagged for a closer look

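Among 136 groups of values (each member's level and each subunit ratio in a group of libraries), 26 values lay so far from the others of their group that the gap exceeded Dixon's 95% critical value, where chance alone gives about 1 in 20 independent groups. The 136 groups reuse the same libraries and levels, so they are not independent. The length-skewed libraries, female euploid replicate 2 and female Ts65Dn;Brwd1+/- replicate 7, account for 8 of the 26 values each. Their levels in log2 CPM were, in that order, 8.79 and 8.91 for Gria2, 7.14 and 7.21 for Gria3, 2.04 and 1.67 for Grin2a and 3.07 and 2.51 for Grin2b. Their log2 ratios were 0.95 and 0.87 for Gria1 to Gria2, -1.65 and -1.70 for Gria3 to Gria2, 2.85 and 3.21 for Grin2c to Grin2b and 1.27 and 1.70 for Grin2d to Grin2b.

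The other 10 values were spread over 8 libraries. Gria2 stood at 10.05 log2 CPM in male euploid replicate 1, and the log2 ratio of Gria3 to Gria2 at -2.17 in male Ts65Dn;Brwd1+/- replicate 3. The library labelled male Ts65Dn replicate 7 had 8.93 for Grin1 and 5.59 for Grin2c, and the library labelled male Ts65Dn replicate 1 had 3.24 for Grin2d, both of which go against a label. The library labelled male Ts65Dn;Brwd1+/- replicate 8, which also goes against its label, had 3.80 for Grin2d. Female Ts65Dn replicate 7 had 5.09 for Grin2b and a log2 ratio of Grin2d to Grin2b of -0.98. At E17.5, Grin3a stood at 4.05 log2 CPM in euploid replicate 4 and the log2 ratio of Grin2c to Grin2b at -3.75 in Ts65Dn replicate 5.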

How the results depend on the processing

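No member's fold change reversed in any alternative with the values before and after both beyond their SE. Of 1536 values of single members or ratios under settings other than leaving out 1 library, 1432 stayed on the same side of the threshold, 5 lost and 99 gained a call, and 63 changed sign with one of the values within its SE. Of 6008 with 1 library left out, 5970 stayed, 27 lost and 11 gained a call, and 152 changed sign in this way. The gains under other settings came with RUVr factors (all but 4), which are estimated from what the groups leave unexplained, and which raise the calls over all genes too. The share of all genes called with these factors is not given here, so the counts that follow are not read as a trait of the members. The numbers of members called were, with 1, 2 and 3 RUVr factors in edgeR and with DESeq2 and 3 factors in that order: 3, 5, 5 and 5 at E17.5 (0 without factors); 1, 1, 1 and 2 for male Ts65Dn vs. euploid (0); 1 each for male Ts65Dn;Brwd1+/- vs. Ts65Dn and vs. euploid (0); 2, 3 and 3 for female Ts65Dn vs. euploid from 2 factors on (1); 1, 2 and 3 for female Ts65Dn;Brwd1+/- vs. Ts65Dn from 2 factors on (0); 2, 4, 4 and 5 for female Ts65Dn;Brwd1+/- vs. euploid (1); 1, 2 and 2 from 2 factors on, and 1 with DESeq2, for the interactions of Ts65Dn and of Ts65Dn;Brwd1+/- (0); 1, 6, 6 and 6 between the sexes in euploid mice and 3, 4, 4 and 6 in Ts65Dn;Brwd1+/- mice (0). DESeq2 without factors called 1 member for male Ts65Dn vs. euploid (Grin3a) and 1 between euploid sexes. Both female counts of 1 fell to 0 at an FDR of 0.05 and without the libraries against their labels, and that for Ts65Dn;Brwd1+/- vs. euploid fell to 0 without a filter. Without the length-skewed libraries female Ts65Dn vs. euploid gave 2 and the euploid sexes 1. Leaving out 1 library at a time gave 0 to 1 members for male and female Ts65Dn vs. euploid, female Ts65Dn;Brwd1+/- vs. euploid and the euploid sexes, and 0 to 2 passing ratios, both of these (Gria3 to Gria2) without male euploid replicate 1. The cause of these changes was not tested. The replicate numbers of the embryo titles did not pair the samples (r of -0.13 to 0.23, 3 of 7 pairs over 0.1, own number highest for 1 of 7), and with a replicate block 0 members were called at E17.5. Depth limits Grin2a at E17.5, with 6 to 110 reads a library.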
